A study of Physcomitrium patens with 24 samples.

Results

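The comparison described here is the return from 12 h to 24 h of sampling in moss that was never heated. It rests on 4 of the 24 libraries of the series, the 2 labelled as controls of 24 h and the 2 labelled as controls of 12 h, chosen by label alone. All were messenger RNA libraries of P. patens strain Gransden, a moss that is a model for land plants, made from protonemata (the filamentous stage) grown for 7 days on PpNH4 agar under a long-day light cycle, and kept at 24 °C throughout. The other 20 libraries are the 1 h and 6 h controls at 24 °C and the moss held at 30 °C or 37 °C over the same 4 times, with 2 replicates in each of the 12 groups. The study used the 24 °C libraries as the controls of each heated time. Compared with each other, they show what changed without heat. The hour at which the lights came on is not given in the sources used here. A change between 12 h and 24 h may therefore belong to the time of day or to the time since sampling began, and these cannot be told apart.

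Plants follow the day with a circadian clock, a loop of genes that switch each other on and off. In Arabidopsis, MYB-like factors such as CCA1 peak around dawn and repress evening genes, the pseudo-response regulators (PRR) act from morning into the night, and ELF3 belongs to the evening complex. The clock is set by light through the phytochromes, which sense red and far-red light, and the cryptochromes, which sense blue light. COP1, a ubiquitin ligase, works with SPA proteins and alongside DET1 to hold back light responses in the dark. The moss genes below are called homologs of these Arabidopsis genes because a list in the study's supplement matches them by ID, and their function in the moss was not examined here.

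Totals were 10696081 and 9167385 counts in the 12 h libraries and 6328277 and 4552626 in the 24 h libraries, so the depths of the groups did not overlap. Log2 CPM values, where CPM is a gene's count scaled to a common library total, correlated at 0.983 between the 12 h replicates and 0.971 between the 24 h replicates, across genes that are not independent replicates. A gene was tested if its CPM was above 0.5 in at least 2 of the 24 libraries, which left 21429 of 32926. The test was edgeR's quasi-likelihood test in 1 model of all 12 groups, since 2 libraries against 2 say little about the spread. A gene is said to have risen or fallen, or to be called, when its Benjamini-Hochberg adjusted p was under 0.05 and its log2 fold change (log2FC) at least 1 in size, and SE is the standard error of a log2FC. No marker of protonemata or of another moss tissue was matched to the gene IDs, so the labelled tissue was not checked.

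From 12 h to 24 h, 1181 genes rose (5.51% of those tested) and 1044 fell (4.87%). Of the genes that rose, 394 had a log2 fold change of at least 2 and 56 of at least 4, and of those that fell 240 and 37 did. The median log2 fold change was 1.64 over the genes that rose, −1.45 over those that fell and −0.02 over all genes. In bulk RNA, fewer cells of a type and less RNA per cell cannot be told apart. In every called gene the 2 libraries of 24 h lay outside the range of the 2 of 12 h, as they did in 64.4% of all genes tested. With library totals in place of TMM scaling the median of all genes moved to −0.16, and the calls were 981 higher and 1428 lower, so that 40.7% rather than 53.1% of the called genes were higher. With all libraries thinned to the smallest total, 1122 genes were higher and 886 lower, of which 998 and 810 were among those called at full depth. The limma-voom treat and edgeR glmTreat tests, which test the fold change against the limit itself, called 306 and 427 genes higher and 115 and 227 lower.

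**Figure D1:**
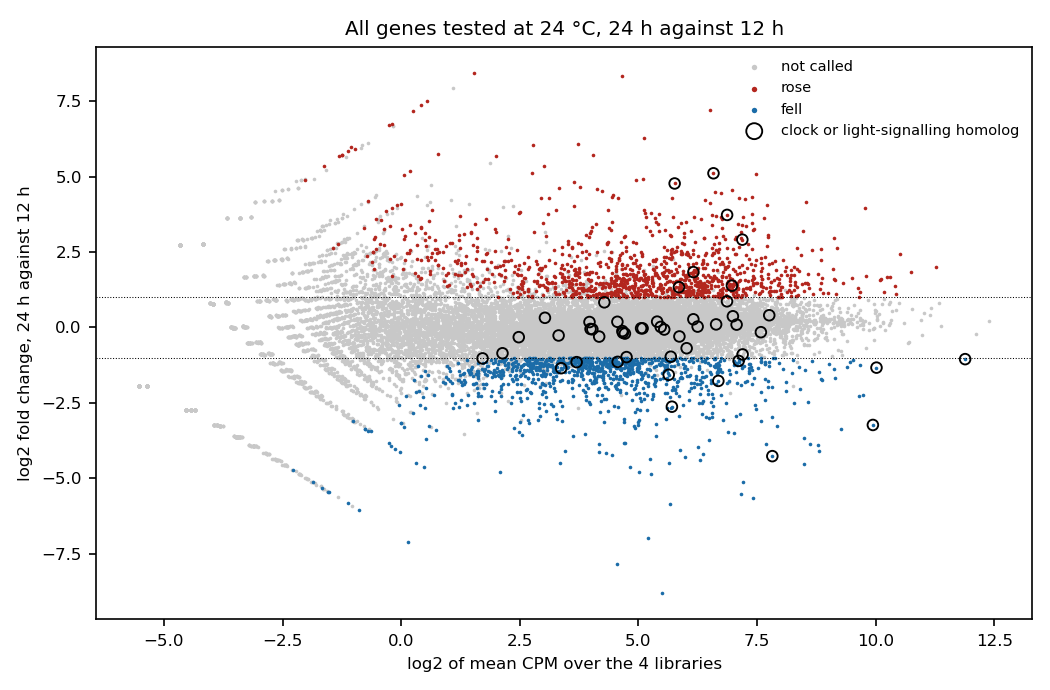
Each point is 1 of the genes tested, with the log2 of its mean CPM over the 4 libraries on the x axis and its log2 fold change of 24 h against 12 h at 24 °C on the y axis. The 1181 genes that rose are red, the 1044 that fell are blue, circles mark the 50 clock and light-signalling homologs, dotted lines stand at −1 and 1, and the 243 genes with no count in the 4 libraries are left out.

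Of the 52 listed homologs of clock and light-signalling genes, 50 were tested. From 12 h to 24 h, 7 of them rose and 11 fell, 36% of the list against 10.4% of all genes tested. The list's median log2FC was −0.10. Those that rose were homologs of CCA1, EPR1, DET1, SPA1 and 3 of the 9 COP1 homologs. Those that fell were homologs of PRR3, ELF3, SRR1, 3 of 4 CCR2 genes, 2 COP1 genes and 3 phytochrome genes. The limma-voom treat and edgeR glmTreat tests each called 5 homologs higher and 3 lower.

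CCA1 is a MYB-like factor of the dawn loop in Arabidopsis. The CPM of its homolog Pp3c3_37540 was 13.1 and 19.7 at 12 h and 237 and 197 at 24 h. The 24 h libraries lay far above those of 12 h (log2FC 3.73, SE 0.31, adjusted p = 1.61e-07 by edgeR). The EPR1 homolog Pp3c12_17450, another MYB-like factor, stood at 29.2 and 36.6 CPM at 12 h and at 83.7 and 81.9 at 24 h (log2FC 1.33, SE 0.21, adjusted p = 0.000213 by edgeR). Both regulators were higher at 24 h in both replicates, the CCA1 homolog by much more.

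The largest rises in the list were those of a pair of COP1 homologs. The COP1 homolog Pp3c5_26150 had 5.64 and 5.11 CPM at 12 h and 194 and 178 at 24 h (log2FC 5.11, SE 0.21, adjusted p = 9.69e-11 by edgeR). A second COP1 homolog, Pp3c6_5030, had 3.91 and 3.73 CPM at 12 h and 102 and 107 at 24 h (log2FC 4.77, SE 0.36). In both genes the replicates of a group were close together and the groups far apart. The DET1 homolog Pp3c19_5540, whose Arabidopsis counterpart represses light responses in the dark, had 34.6 and 34.1 CPM at 12 h and 253 and 262 at 24 h (log2FC 2.91, SE 0.19). The third COP1 homolog that rose, Pp3c16_19410, went from 32.0 and 30.5 to 103 and 120 CPM (log2FC 1.83), and the SPA1 homolog Pp3c2_15860 from 62.4 and 76.7 to 171 and 191 CPM (log2FC 1.38). As in every called gene, these groups did not overlap. Adjusted p-values of the 4 genes after the first ran from 1.59e-08 to 3.22e-05 in edgeR.

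Other COP1 homologs fell. Pp3c1_13190 fell from 82.3 and 97.4 CPM at 12 h to 13.9 and 15.1 at 24 h (log2FC −2.63, SE 0.28, adjusted p = 3.98e-06 by edgeR). Pp3c2_24290 fell from 70.3 and 78.5 to 19.3 and 31.2 CPM (log2FC −1.57, SE 0.25). Of the other 4 COP1 homologs, none was called. One of them, Pp3c13_21340, had 2.00 and 9.23 CPM at 12 h and 1.90 and 4.45 at 24 h, so its replicates differed as much as its groups, and its log2FC of −0.86 became 0.60 without replicate 2 of 12 h.

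The steepest fall in the list was that of the PRR3 homolog Pp3c16_18610, whose Arabidopsis counterpart is a pseudo-response regulator. It had 412 and 449 CPM at 12 h and 20.2 and 24.5 at 24 h (log2FC −4.27, SE 0.18, adjusted p = 1.21e-10 by edgeR). The ELF3 homolog Pp3c11_14750, whose counterpart belongs to the evening complex, had 146 and 173 CPM at 12 h and 53.8 and 39.0 at 24 h. Its log2FC was −1.78 (SE 0.41, adjusted p = 0.00463 by edgeR), and −1.57 with an adjusted p of 0.0693 in edgeR without replicate 2 of 24 h. The second ELF3 homolog was not called. The SRR1 homolog Pp3c25_14670, whose counterpart acts in phytochrome B signalling and the clock, fell from 17.6 and 18.1 to 6.64 and 9.57 CPM (log2FC −1.15), and this call was lost without replicate 1 of 24 h (−0.90).

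CCR2 encodes a glycine-rich RNA-binding protein that is an output of the Arabidopsis clock. The homolog Pp3c7_3360 had 1869 and 1686 CPM at 12 h and 180 and 197 at 24 h (log2FC −3.24, SE 0.25, adjusted p = 1.02e-07 by edgeR). Pp3c11_19620 fell from 1598 and 1369 to 627 and 549 CPM (log2FC −1.34), and Pp3c7_6560, the most abundant of them, from 5844 and 4364 to 2441 and 2476 CPM (log2FC −1.05). As in every called gene, the groups of these 3 did not overlap. The fourth homolog, Pp3c12_1830, had a log2FC of 0.09 (SE 0.11). Pp3c7_6560 was at the limit of 1, and without replicate 1 of 12 h its log2FC was −0.83.

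Of the 7 phytochrome homologs, 3 fell. The PHYC homolog Pp3c16_18760 went from 15.5 and 14.1 to 5.06 and 6.68 CPM (log2FC −1.35), the PHYE homolog Pp3c3_23790 from 32.7 and 32.4 to 13.9 and 15.6 CPM (−1.14), and the PHYA homolog Pp3c25_2610 from 168 and 210 to 84.9 and 90.2 CPM (−1.11). Groups did not overlap in any of the 3, as in every called gene. The PHYC call was lost without any 1 of the 4 libraries (log2FC −1.15 to −1.55), and the PHYA call without replicate 2 of 12 h (−0.95) or either 24 h library (−1.07 and −1.16). That of PHYE was kept with each library left out, and all 3 calls were lost in the limma-voom treat and edgeR glmTreat tests. Both tests also lost the calls of EPR1 Pp3c12_17450, SPA1 Pp3c2_15860, COP1 Pp3c2_24290, ELF3 Pp3c11_14750 and SRR1 Pp3c25_14670. The CCR2 calls of Pp3c11_19620 and Pp3c7_6560 were likewise lost.

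The other 32 homologs, among them those of PHYB, PHYD, CRY1, ELF4, PIF3 and the casein kinase subunits CKB3 and CKB4, were not called, with log2FC values from −1.03 to 0.86. Of these, 6 had an adjusted p under 0.05 in edgeR and a log2FC under 1 in size. The PRR9 homolog Pp3c25_4920 had 64.0 and 72.0 CPM at 12 h and 30.5 and 39.0 at 24 h (log2FC −0.97). The PRR7 homolog Pp3c16_18460 had 166 and 216 CPM at 12 h and 87.9 and 117 at 24 h (−0.90). Both PRR genes thus lay on the same side as the PRR3 homolog, short of the limit. The MYB-like RVE2 homolog Pp3c4_2590 had a log2FC of −0.99, and that of the blue-light receptor homolog CRY2, Pp3c7_20480, was −0.69. The second SPA1 homolog, Pp3c1_24850, stood at 77.1 and 88.5 CPM at 12 h and at 148 and 154 at 24 h (0.86). The response regulator homolog ARR4, Pp3c20_13600, had a log2FC of 0.83. The TEJ homolog Pp3c3_12290 was the furthest below 0 at −1.03, with an adjusted p of 0.18 (edgeR) and at most 4.86 CPM in the 4 libraries.

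**Figure D2:**
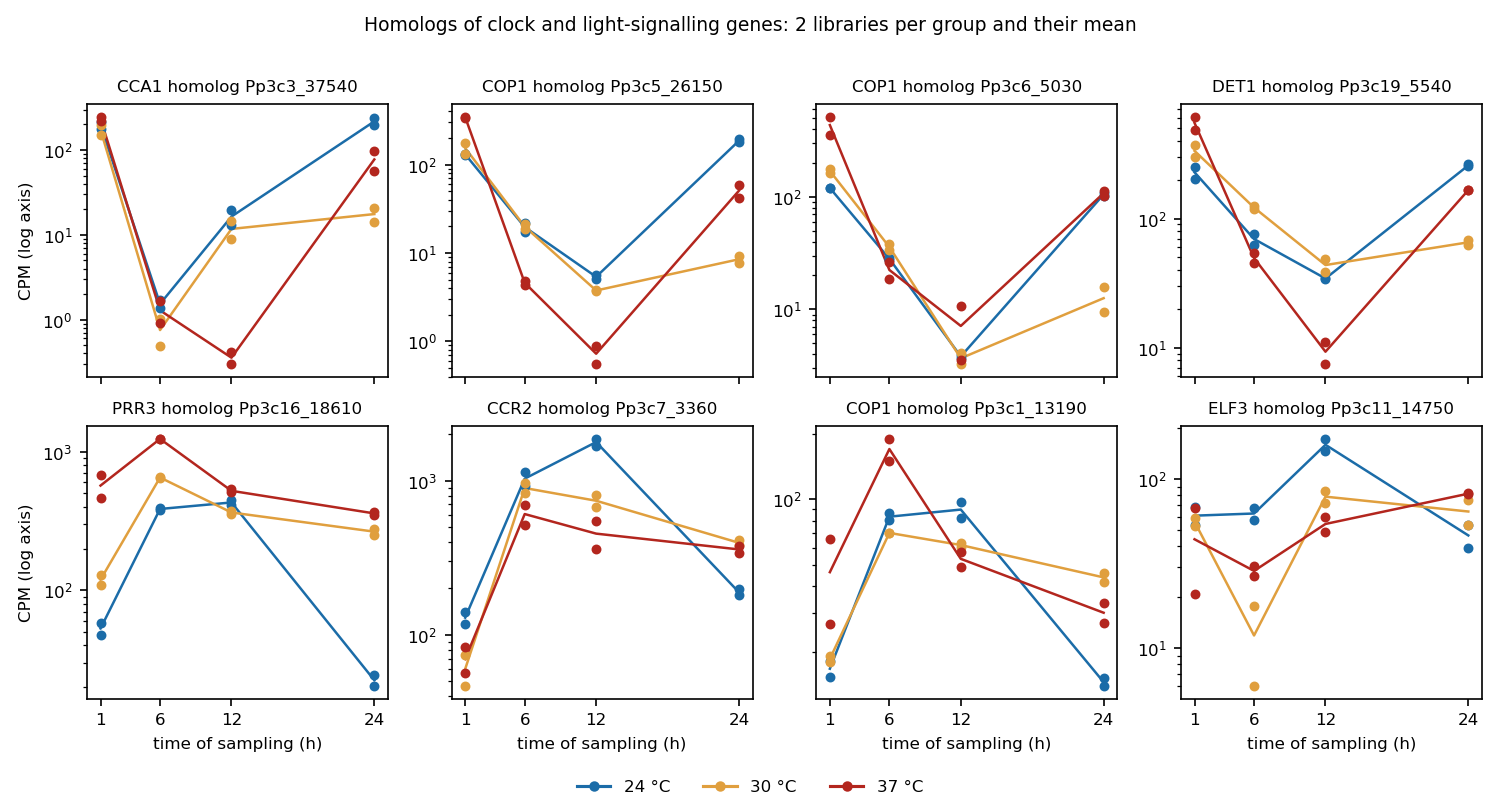
CPM on a log axis against the time of sampling in hours for 8 homologs, with 1 point per library and a line through the mean of the 2 libraries of each group, at 24 °C (blue), 30 °C (orange) and 37 °C (red). The upper row holds 4 genes that rose from 12 h to 24 h at 24 °C, among them the CCA1 homolog Pp3c3_37540 from 13.1 and 19.7 to 237 and 197 CPM, and the lower row 4 that fell, among them the PRR3 homolog Pp3c16_18610 from 412 and 449 to 20.2 and 24.5 CPM.

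The 1 h and 6 h controls, which take no part in the contrast, were set beside it. The CCA1 homolog Pp3c3_37540 had 214 and 179 CPM at 1 h and 1.71 and 1.36 at 6 h, the lowest level of its 24 °C series. The COP1 homolog Pp3c5_26150 had 131 and 130 CPM at 1 h and 22.0 and 17.3 at 6 h, and so was lowest at 12 h. The PRR3 homolog Pp3c16_18610 had 47.7 and 58.1 CPM at 1 h and 390 and 382 at 6 h, and the CCR2 homolog Pp3c7_3360 118 and 140 at 1 h and 928 and 1131 at 6 h. Of the 7 homologs that rose from 12 h to 24 h, 4 had fallen from 1 h to 6 h and none had risen, and of the 11 that fell, 5 had risen from 1 h to 6 h and none had fallen, by the same test and thresholds in a contrast added after the data were seen. Over all genes, 1798 were higher (8.39%) and 1163 lower (5.43%) at 6 h than at 1 h. Of all genes that rose from 12 h to 24 h, 46.7% had fallen from 1 h to 6 h. Of all that fell, 60% had risen, so the mirrored change was not particular to the homologs.

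Genes beyond the clock list were compared in the same way. Of the 1181 genes that rose from 12 h to 24 h, 551 (46.7%, and 47.4% of all genes lower at 6 h than at 1 h) had fallen from 1 h to 6 h and 7 had risen, with a median log2FC of −1.05 against 0.05 over all genes. Of the 1044 that fell from 12 h to 24 h, 626 (60%, and 34.8% of all genes higher at 6 h) had risen from 1 h to 6 h and 1 had fallen, with a median of 1.34. The 2 contrasts share no library. The genes that rose took 15.8% and 15.5% of all CPM at 1 h, 7.63% and 7.01% at 6 h, 5.07% in both libraries of 12 h, and 14.7% and 15.1% at 24 h. The genes that fell took 2.60% and 2.84% at 1 h, 6.96% and 7.62% at 6 h, 8.77% and 9.03% at 12 h and 2.58% and 2.50% at 24 h. The values of 12 h and 24 h chose these genes and are a description, whereas those of 1 h and 6 h entered it only through the shared spread, the scaling and the filter on low counts. With the 4 libraries alone, 1564 genes were higher and 1297 lower at 24 h than at 12 h. The 10 most abundant genes held 14.4% of the CPM of the genes that rose and 20% of that of the genes that fell.

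**Figure D3:**
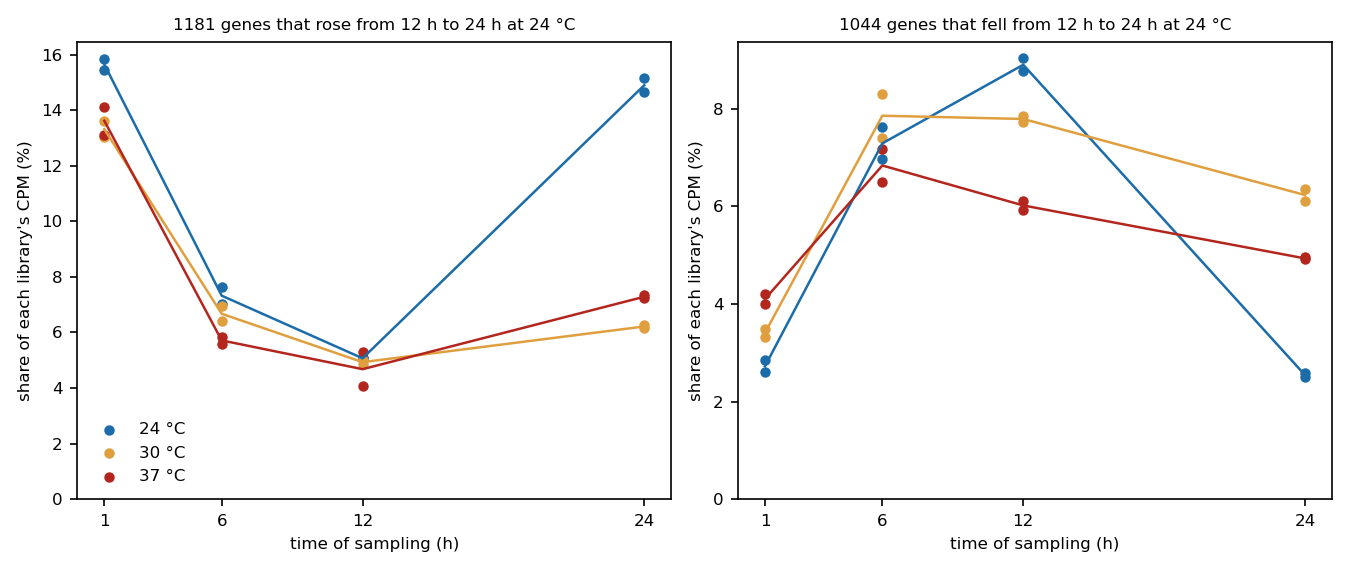
Share of each library's CPM in percent against the time of sampling in hours, with 1 point per library and a line through the mean of each group, for the 1181 genes that rose (left) and the 1044 that fell (right) from 12 h to 24 h at 24 °C. At 24 h the genes that rose held 14.7% and 15.1% at 24 °C, 6.17% and 6.26% at 30 °C and 7.34% and 7.23% at 37 °C.

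Directly compared, 596 genes were higher (2.78%) and 206 lower (0.961%) at 24 h than at 1 h. Together these are 3.74% of the genes tested. This contrast shares the 24 h libraries with that of 24 h and 12 h, so values of single genes are given side by side. The log2FC of 24 h against 1 h was 0.14 (SE 0.27) for the CCA1 homolog Pp3c3_37540, 0.51 (SE 0.17) for the COP1 homolog Pp3c5_26150 and 0.18 (SE 0.18) for the DET1 homolog Pp3c19_5540. The PRR3 homolog Pp3c16_18610 was lower at 24 h than at 1 h, with a log2FC of −1.25 (SE 0.17, adjusted p = 0.000658 by edgeR). These counts moved with single libraries. Without replicate 1 of 24 h they were 181 and 58, and without replicate 1 of 1 h they were 266 and 102. Without replicate 2 of 1 h, 261 genes were higher. The test limma-voom treat called no gene in either direction and edgeR glmTreat 21 and 9, beside 5110 genes with an unadjusted p under 0.05 in edgeR.

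At 30 °C few genes were called over the same step. In all, 14 rose (0.0653%) and 25 fell (0.117%), with 2523 genes at an unadjusted p under 0.05 in edgeR. The CCA1 homolog Pp3c3_37540 had 8.85 and 14.6 CPM at 12 h and 14.3 and 20.8 at 24 h in moss held at 30 °C, which overlapped, and the PRR3 homolog Pp3c16_18610 had 371 and 357 CPM at 12 h and 252 and 277 at 24 h. Of the 18 homologs called at 24 °C, the COP1 homolog Pp3c5_26150 alone was called at 30 °C. It went there from 3.82 and 3.71 to 7.62 and 9.36 CPM (log2FC 1.17, adjusted p = 0.0434 by edgeR). The COP1 homolog Pp3c6_5030 had a larger log2FC at 30 °C (1.81), just short of the call (adjusted p = 0.0526 by edgeR). Of the 1181 genes that rose at 24 °C, 10 rose at 30 °C (0.847%, and 71.4% of those that rose there), and of the 1044 that fell 18 fell (1.72%, and 72% of those that fell there). Median log2FC values at 30 °C were 0.22 over the first and −0.29 over the second set, against −0.00 over all genes. The genes that rose at 24 °C held 5.01% and 4.85% of all CPM at 12 h and 6.17% and 6.26% at 24 h in the 30 °C libraries, and those that fell 7.86% and 7.73% at 12 h and 6.11% and 6.35% at 24 h.

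The difference between the 30 °C and the 24 °C change was tested in itself. Over all genes 484 changes were higher at 30 °C (2.26%) and 787 lower (3.67%), together 5.93%. Among the homologs that rose at 24 °C, the difference in log2FC (30 °C minus 24 °C) ran from −1.25 for the SPA1 homolog Pp3c2_15860 to −3.94 (SE 0.31) for the COP1 homolog Pp3c5_26150, and was −3.10 for the CCA1 homolog Pp3c3_37540. The SPA1 difference was −0.97 without replicate 1 of 30 °C 12 h, short of the limit. Among those that fell it ran from 0.71 for the PHYA homolog Pp3c25_2610 to 3.81 (SE 0.25, adjusted p = 1.69e-07 by edgeR) for the PRR3 homolog Pp3c16_18610. These differences use the 24 °C libraries that also chose the genes, so their signs are no independent support. The 30 °C counts depended on single libraries, ranging from 1 to 107 genes higher and from 4 to 122 lower as 1 of the 4 libraries was left out, the extremes without replicate 1 and replicate 2 of 12 h. Without replicate 1 or 2 of 24 h they were 4 and 6, or 23 and 23.

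At 37 °C, 1401 genes rose (6.54%) and 1150 fell (5.37%) from 12 h to 24 h. All 7 homologs that rose at 24 °C also rose at 37 °C, beside 37.3% of all genes that rose at 24 °C. The CCA1 homolog Pp3c3_37540 had 0.414 and 0.299 CPM at 12 h and 98.5 and 56.2 at 24 h in moss held at 37 °C, with a log2FC of 7.73 (SE 0.47), larger than at 24 °C by 4.01 (adjusted p = 0.000372 by edgeR), from a 12 h level of very few counts. The DET1 homolog Pp3c19_5540 had 7.45 and 11.2 CPM at 12 h and 167 and 165 at 24 h, a change larger than at 24 °C by 1.23 (adjusted p = 0.00482 by edgeR), or by 0.98 without replicate 1 of 37 °C 12 h. Both genes stood lower at 37 °C than at 24 °C in each library of 12 h and of 24 h.

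Of the 11 homologs that fell at 24 °C, 2 fell at 37 °C, a share close to the 17.7% over all genes that fell at 24 °C. The COP1 homolog Pp3c2_24290 went from 207 and 140 to 56.6 and 49.4 CPM there (log2FC −1.71). The PHYC homolog Pp3c16_18760 went from 48.7 and 123 to 18.2 and 15.3 CPM (−2.36), so its 12 h libraries differed widely between themselves. The PRR3 homolog Pp3c16_18610 had 510 and 535 CPM at 12 h and 369 and 348 at 24 h at 37 °C, a log2FC of −0.54 against −4.27 at 24 °C, and the difference of 3.73 passed the test (adjusted p = 2.33e-07 by edgeR). The CCR2 homolog Pp3c7_3360 had 358 and 548 CPM at 12 h and 341 and 374 at 24 h, groups that overlapped, and its difference from the 24 °C change was 2.90 (adjusted p = 3e-05 by edgeR). The differences of the COP1 homolog Pp3c1_13190 (1.81) and the ELF3 homolog Pp3c11_14750 (2.37) passed as well, the latter only with replicate 2 of 24 °C 24 h (2.18 without it, adjusted p = 0.0508 by edgeR).

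Over all genes the 37 °C change was higher than that at 24 °C for 1211 genes (5.65%) and lower for 1176 (5.49%). Of the 1181 genes that rose at 24 °C, 441 rose at 37 °C (37.3%, and 31.5% of those that rose there) and 30 fell. Of the 1044 that fell, 185 fell at 37 °C (17.7%, and 16.1% of those that fell there) and 43 rose. The median log2FC at 37 °C was 0.79 over the first set and −0.24 over the second, against −0.00 over all genes. The genes that rose at 24 °C held 5.29% and 4.06% of all CPM at 12 h and 7.34% and 7.23% at 24 h in the 37 °C libraries. The comparisons at 24 °C and 37 °C share no library. The PRR7 homolog Pp3c16_18460 was not called at 24 °C, but rose at 37 °C from 51.9 and 78.8 to 146 and 152 CPM (log2FC 1.19), and its changes at 24 °C and 37 °C differed by 2.08 (adjusted p = 0.000298 by edgeR).

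**Figure D4:**
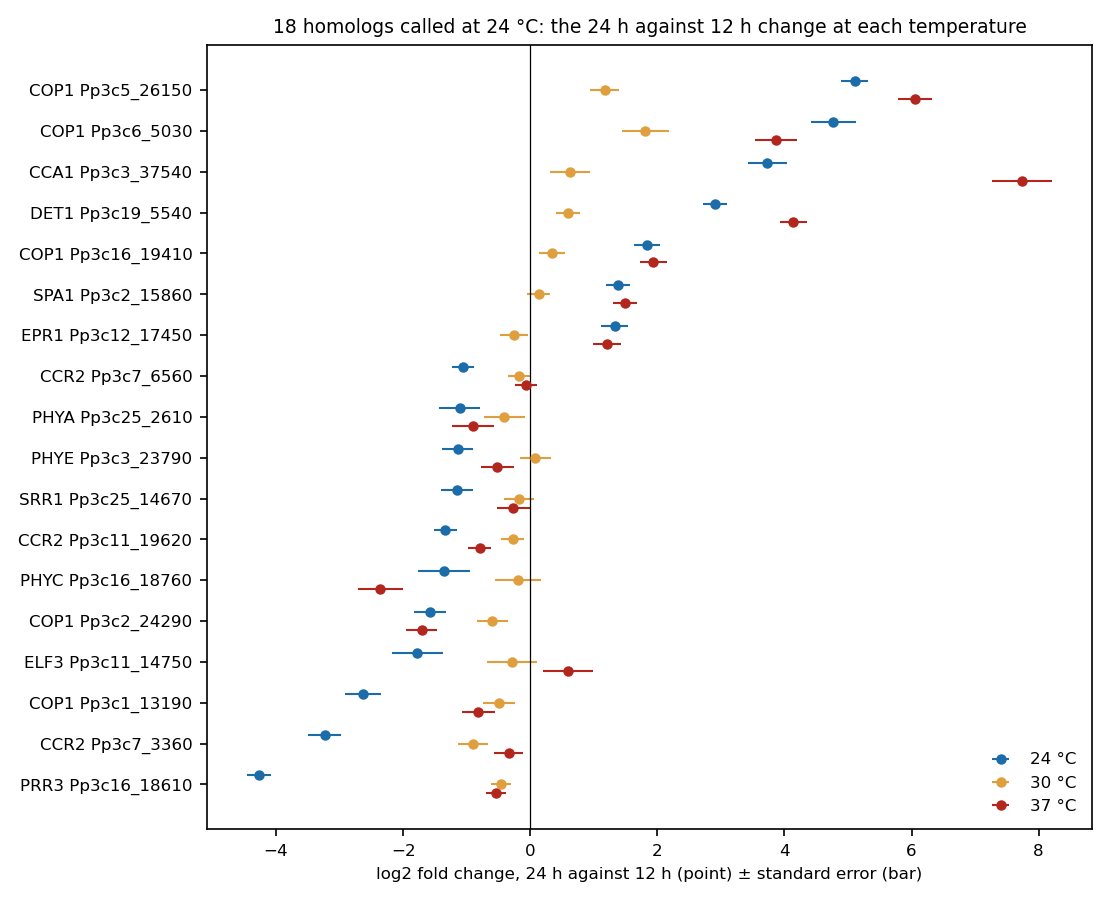
Log2 fold change of 24 h against 12 h (point) with its standard error (bar) on the x axis for each of the 18 homologs called at 24 °C, at 24 °C (blue), 30 °C (orange) and 37 °C (red), each from 2 libraries against 2. The 7 genes that rose at 24 °C also rose at 37 °C, while the PRR3 homolog Pp3c16_18610 stood at −4.27, −0.46 and −0.54.

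Few genes had a product name in the supplement, 469 of the 21429 tested. Among them were 34 of the genes that rose (2.88%) and 44 of those that fell (4.21%), the PRR3 homolog among the latter. The supplement was at hand only in part, and most of these names come from genes the study had found raised by heat, so they are no picture of all called genes. The B-box zinc finger gene Pp3c11_6300, whose protein carries a CCT domain as light-signalling regulators of the CONSTANS kind do, had 4 and 0 counts at 12 h and 61 and 78 at 24 h. This is a ratio of 69.7 after scaling, with a 95% exact binomial interval from 26.6 to 259.5 that covers counting error only. Cyclin p1;1 (Pp3c20_16040), a cyclin gene by name, went from 24.1 and 26.4 to 111 and 104 CPM (log2FC 2.09, SE 0.20, adjusted p = 1.09e-06 by edgeR).

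Glucose-1-phosphate adenylyltransferase (Pp3c14_12850), which makes the precursor of starch, went from 7.21 and 4.22 to 40.01 and 52.1 CPM (log2FC 2.99, SE 0.62). The gene of an acyl-(acyl carrier protein) thioesterase (Pp3c18_15010), which releases fatty acids from the plastid synthase, went from 13.3 and 11.3 to 53.8 and 39.0 CPM (1.92). A cysteine proteinase gene (Pp3c13_8540) went from 16.8 and 17.97 to 91.6 and 111 CPM (2.54), and an F-box gene (Pp3c1_24420), of the kind that picks proteins for ubiquitin ligases, from 2.95 and 2.85 to 18.3 and 21.4 CPM (2.76). The groups of these genes did not overlap, which was a condition of choosing them. The genes of a major facilitator transporter (Pp3c18_11000), a signal peptidase subunit (Pp3c12_22760) and a plant viral-response protein (Pp3c1_25080) rose by log2FC values of 2.14, 2.21 and 3.12. The homeodomain-like gene Pp3c19_2940 was at most 5.69 CPM, and its log2FC of 3.05 lost its call without replicate 2 of 12 h (2.58) or replicate 1 of 24 h (2.37).

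Among the named genes that fell, a UDP-glycosyltransferase gene (Pp3c15_4410), whose enzyme family attaches sugars to small molecules, went from 70.3 and 78.1 to 3.16 and 1.78 CPM (log2FC −4.85, SE 0.31, adjusted p = 9.14e-09 by edgeR). An F-box/RNI-like gene (Pp3c1_22950) went from 33.3 and 42.2 to 1.27 and 3.12 CPM (−4.18). The gene named cold regulated protein 27 (Pp3c23_19470) went from 52.9 and 62.2 to 6.33 and 5.79 CPM (−3.24). In Arabidopsis the gene of that name is under clock control. All 3 were also low at 1 h at 24 °C, with at most 2.61 CPM for Pp3c15_4410, 0.871 for Pp3c1_22950 and 1.09 for Pp3c23_19470.

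Ferritin (Pp3c10_3790), which stores iron, went from 60.4 and 48.2 to 6.80 and 10.02 CPM (log2FC −2.71), and glutamine-dependent asparagine synthase 1 (Pp3c20_17620), which makes asparagine for nitrogen transport, from 122 and 140 to 18.8 and 27.6 CPM (−2.51). The gene of the co-chaperone BCL-2-associated athanogene 6 (Pp3c26_10790) went from 49.1 and 49.4 to 4.43 and 2.23 CPM (−3.83), a dormancy/auxin associated gene (Pp3c23_13750) from 20.1 and 16.0 to 2.69 and 3.34 CPM (−2.59), and a calcineurin-like phosphoesterase gene (Pp3c20_18430) from 10.7 and 9.52 to 0.633 and 1.78 CPM (−3.14). All groups were apart, again by the rule that chose the genes. The gene of DNA polymerase epsilon catalytic subunit A (Pp3c16_7660), which copies DNA, went from 471 and 586 to 106 and 79.2 CPM (−2.51). Its neighbour by ID, named inactive rhomboid protein (Pp3c16_7650), followed it closely from 576 and 724 to 131 and 103 CPM (−2.47), and whether the 2 gene models share reads was not tested.

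Of these named genes, some also differed in their change at 37 °C. The genes were chosen by their 24 °C change or by such differences, so the signs are no independent support. The changes of Pp3c16_7660 and Pp3c16_7650 were higher at 37 °C than at 24 °C by 3.15 and 3.12, those of Pp3c15_4410 by 3.81 and of Pp3c23_19470 by 3.02. At 30 °C the change of Pp3c11_6300 differed by −6.22, a call lost without replicate 1 of 30 °C 12 h (−6.50, adjusted p = 0.0668 by edgeR), and that of Pp3c13_8540 by −2.68. A gene of a mitochondrial inner membrane translocase (Pp3c11_5340) went from 7.47 and 6.58 to 15.7 and 19.1 CPM at 24 °C (log2FC 1.30) and its change at 37 °C differed by −3.06. An iron-sulfur cluster binding protein gene (Pp3c23_14000) went from 1.30 and 2.06 to 3.95 and 7.79 CPM (1.76), with a difference of −2.42 at 37 °C. The 24 °C call of Pp3c11_5340 was lost without any 1 of the 4 libraries (1.15 to 1.44), and that of Pp3c23_14000 without replicate 1 of 12 h (1.46) or replicate 2 of 24 h (1.23).

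Unnamed genes made up most of the calls, as they did of the genes tested. Among those with at least 10 counts in each of the 4 libraries, the largest rises were those of Pp3c9_20230, from 1.13 and 1.28 to 174 and 187 CPM (log2FC 7.21), and Pp3c3_26370, from 8.68 and 11.5 to 341 and 350 CPM (5.10). The largest falls were those of Pp3c10_10290, from 294 and 377 to 6.17 and 7.12 CPM (−5.66), and Pp3c11_5230, from 286 and 275 to 8.07 and 3.56 CPM (−5.54). Pp3c9_20230 and Pp3c3_26370 stood at 60.1 and 58.1 CPM and at 289.5 and 271 CPM at 1 h. Pp3c10_10290 had 144 and 201 CPM at 1 h, and Pp3c11_5230 had 2.09 and 2.18.

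Heat response genes give the background against which the study read its heated moss. The lists below hold the genes so named in the part of the supplement at hand, and their shares of called genes stand beside the 10.4% of all genes tested. Of 19 genes of small heat shock proteins (HSP20), which hold unfolding proteins in solution, 1 rose (5.26%) and none fell. Among the 19, 7 had no count in the 4 libraries and could not be called. The 5.26% therefore cannot be read as fewer calls than the 10.4%. Of 5 HSP90 and 9 chaperonin genes none was called. The HSP20 gene that rose, Pp3c1_7030, had 3.04 and 4.81 CPM at 12 h and 11.1 and 6.46 at 24 h (log2FC 1.19). This call was lost without replicate 1 of 12 h (0.89) or replicate 1 of 24 h (0.72), and with libraries thinned to equal totals (1.00, adjusted p = 0.0963 by edgeR). The most abundant HSP20 gene, Pp3c13_3880, had 270.2 and 230.2 CPM at 12 h and 239 and 247 at 24 h, which overlapped, and the most abundant HSP90 gene, Pp3c14_3360, 316 and 316 CPM at 12 h and 294 and 312 at 24 h. The most abundant chaperonin gene, Pp3c24_12180, had 336 and 289 CPM at 12 h and 472 and 575 at 24 h, a log2FC of 0.75 short of the limit.

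Of 9 HSP70 genes, which fold proteins with ATP, 2 rose and 1 fell, which is 33.3% of a short list against 10.4% of all genes, with a median log2FC of 0.34 against −0.02. Pp3c26_10600 went from 63.7 and 60.7 to 153 and 189 CPM (log2FC 1.46, SE 0.30, adjusted p = 0.00222 by edgeR), and its 1 h libraries stood higher still, at 661 and 551 CPM. Pp3c10_20900 had 59.1 and 51.9 CPM at 12 h and 117 and 105 at 24 h, and its log2FC of 1.00 lost its call without any 1 of the 4 libraries (0.90 to 1.10) and with library totals (0.86). Pp3c11_6620 fell from 52.7 and 45.8 to 15.0 and 9.13 CPM (−2.01), a call lost without replicate 1 of 12 h (−1.90) or replicate 2 of 24 h (−1.72). Of 10 DNAJ genes, co-chaperones of HSP70, 2 rose and none fell (20%, against 10.4% of all genes), with a median log2FC of −0.03. Pp3c21_19850 went from 99.3 and 90.03 to 265 and 261 CPM (1.47) and Pp3c19_10440 from 137 and 126 to 345 and 265 CPM (1.22), with 412 and 284 and with 438 and 348 CPM at 1 h.

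Of 4 heat shock factor genes, transcription factors of the heat response, 1 rose (25% of a list of 4, against 10.4% of all genes). HSF4 (Pp3c21_18820) had 16.3 and 13.2 CPM at 12 h and 49.3 and 24.0 at 24 h, so the 24 h libraries differed widely between themselves. Its log2FC of 1.33 was lost as a call without replicate 2 of 12 h (1.17) or replicate 1 of 24 h (0.70). The most abundant of them, heat shock factor 3 (Pp3c22_9250), had 28.6 and 33.7 CPM at 12 h and 51.1 and 30.9 at 24 h, which overlapped. None of the 5 genes with late embryogenesis abundant in their name and none of the 8 ubiquitin genes was called, and with 10.4% of all genes called, lists of this size say nothing particular. The most abundant of these were Pp3c21_10640, with 31.0 and 34.1 CPM at 12 h and 50.6 and 29.2 at 24 h, and polyubiquitin 10 (Pp3c12_18200), with 477 and 394 at 12 h and 618 and 459 at 24 h. Of the 3 B-box genes the other 2 were not called, among them Pp3c11_6370 with 20.4 and 18.4 CPM at 12 h and 17.7 and 17.6 at 24 h.

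**Figure D5:**
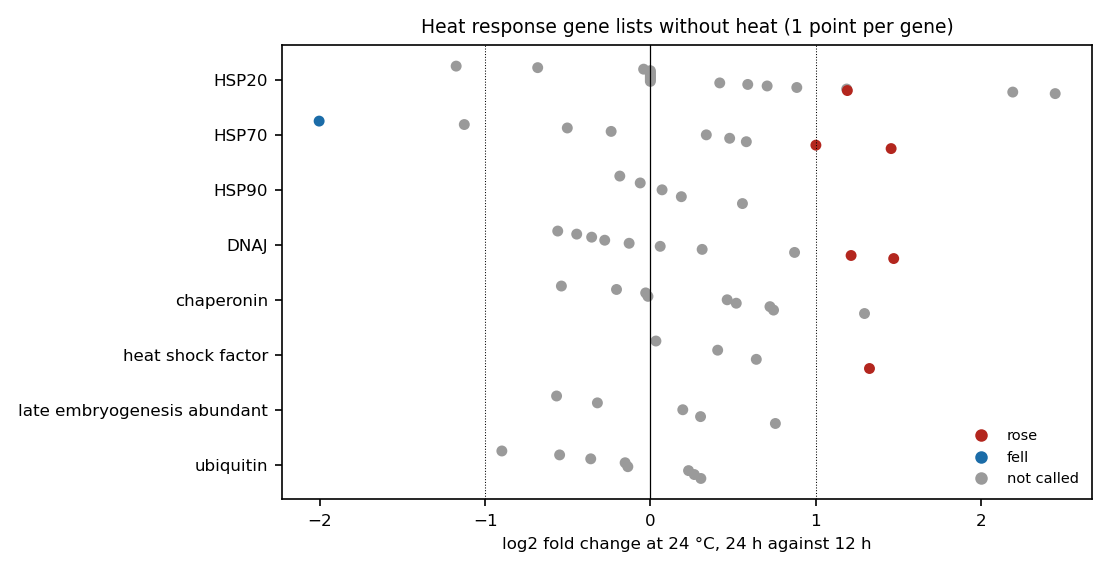
Log2 fold change of 24 h against 12 h at 24 °C on the x axis for each gene of 8 heat response lists, 1 point per gene, red where it rose, blue where it fell and grey where it was not called, with dotted lines at −1 and 1. Of 9 HSP70 genes 2 rose and 1 fell, while none of the 5 HSP90 and 9 chaperonin genes was called, and the 7 HSP20 genes without counts stand at 0.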

How the data were processed

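Messenger RNA of 24 libraries was sequenced, 2 for each of 12 groups. The deposited values are raw counts per gene for 32926 genes, not normalized. The authors used bcl2fastq 1.8.4 to demultiplex, BWA-MEM 0.7.17.1 to align and featureCounts, with its default options, to count. Counting without strand cannot separate overlapping or antisense genes. Apart from strand, the counts may also fail to separate near-identical genes, such as copies within a family. Groups came from the sample labels, which do not say whether replicates came from separate cultures, so p-values measure the spread between these libraries.

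The test was edgeR's (version 4.0.16, in R 4.3.3) quasi-likelihood test on contrasts of 1 model of all 12 groups, with TMM scaling and Benjamini-Hochberg adjustment within each contrast. It covered the 21429 genes whose CPM passed 0.5 in 2 or more libraries. The SE is the size of the log2 fold change divided by the square root of F. The contrast of 6 h with 1 h was added after the data were seen. The scripts were tested on simulated data. No replicate pair differed by less than sampling noise. Library totals ranged from 4332911 to 10696081, and counting intervals cover counting error only.

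Names came from the study's supplementary tables, read only in part where long, and 0 IDs matched the RefSeq gene table given, so no sequence or position is printed. Members and lists were chosen with earlier results of these data known, and the name pattern of the chaperonin list was corrected after the files had been read. The genes named are the clock and light-signalling homologs (by value where called or at least 0.6 in size on the log2 scale, with 2 others given as members of a family), and, among called genes with an informative name, a mean log2 CPM of 1 or more and groups that do not overlap, the 10 largest changes in each direction. Each list of 3 or more genes adds up to 2 called members in each direction and its most abundant gene, and each difference between temperatures up to 5 genes in each direction. The 4 unnamed genes were chosen by size of change. Alternatives were scaling by RLE or by library totals, a CPM limit of 1 or none, DESeq2 1.42.0, limma 3.58.1 voom with eBayes or treat, glmTreat, no fold change limit, the replicate number as a block, fits of only the 8 or 4 libraries concerned and each library left out. Thinning to 4332911 counts and leaving out libraries of other groups were chosen after seeing the data. Lists with fewer than 3 named genes, and the study's co-expression modules, of which 1 list was at hand only in part, were not analysed here as lists.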

Additional observations from a re-analysis of the deposited data

Results flagged for a closer look

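The change from 12 h to 24 h at 24 °C was compared with that at 30 °C and at 37 °C by testing the difference itself with edgeR, and the results below passed. All values are differences in log2 fold change, heated minus 24 °C, and both differences use the same 24 °C libraries. Those libraries also chose many of the genes named, so the signs are no independent support.

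At 30 °C the change was higher for 484 genes and lower for 787. Among the clock and light-signalling homologs it was higher for PRR3 Pp3c16_18610 (3.81), CCR2 Pp3c7_3360 (2.33), COP1 Pp3c1_13190 (2.14), PHYE Pp3c3_23790 (1.23), PRR7 Pp3c16_18460 (1.13), CCR2 Pp3c11_19620 (1.06) and PRR9 Pp3c25_4920 (1.00). It was lower for COP1 Pp3c5_26150 (−3.94), CCA1 Pp3c3_37540 (−3.10), COP1 Pp3c6_5030 (−2.96), DET1 Pp3c19_5540 (−2.32), EPR1 Pp3c12_17450 (−1.59), ARR4 Pp3c20_13600 (−1.59), COP1 Pp3c16_19410 (−1.49) and SPA1 Pp3c2_15860 (−1.25). Of the other named genes it was higher for the UDP-glycosyltransferase gene Pp3c15_4410 (3.58), the F-box/RNI-like gene Pp3c1_22950 (3.40), cold regulated protein 27 Pp3c23_19470 (2.88), the calcineurin-like gene Pp3c20_18430 (2.12) and ferritin Pp3c10_3790 (1.57). It was lower for the B-box gene Pp3c11_6300 (−6.22), the cysteine proteinase gene Pp3c13_8540 (−2.68), the F-box gene Pp3c1_24420 (−2.26), cyclin p1;1 Pp3c20_16040 (−1.87), the HSP70 gene Pp3c26_10600 (−1.74) and HSF4 Pp3c21_18820 (−1.68). It was also lower for the DNAJ genes Pp3c21_19850 (−1.69) and Pp3c19_10440 (−1.20), the thioesterase gene Pp3c18_15010 (−1.67) and the transporter gene Pp3c18_11000 (−1.27).

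At 37 °C the change was higher for 1211 genes and lower for 1176. Among the homologs it was higher for CCA1 Pp3c3_37540 (4.01), PRR3 Pp3c16_18610 (3.73), CCR2 Pp3c7_3360 (2.90), ELF3 Pp3c11_14750 (2.37), PRR7 Pp3c16_18460 (2.08), COP1 Pp3c1_13190 (1.81) and DET1 Pp3c19_5540 (1.23), and lower for ARR4 Pp3c20_13600 (−1.76). Of the other named genes it was higher for Pp3c15_4410 (3.81), Pp3c1_22950 (3.26), the DNA polymerase epsilon gene Pp3c16_7660 (3.15), its neighbour Pp3c16_7650 (3.12), Pp3c23_19470 (3.02) and Pp3c20_18430 (2.99). It was lower for the mitochondrial translocase gene Pp3c11_5340 (−3.06), the viral-response gene Pp3c1_25080 (−2.97), the iron-sulfur gene Pp3c23_14000 (−2.42), HSF4 Pp3c21_18820 (−2.26), Pp3c13_8540 (−2.09) and the HSP70 gene Pp3c26_10600 (−1.27). It was also higher for ferritin Pp3c10_3790 (2.07), and lower for polyubiquitin 10 Pp3c12_18200 (−1.96) and the HSP70 gene Pp3c10_20900 (−1.93). Lower too were the changes of the HSP20 gene Pp3c1_7030 (−1.46) and the DNAJ genes Pp3c21_19850 (−1.40) and Pp3c19_10440 (−1.10).

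Several of these calls rested on single libraries, with 1 of the 8 libraries of each difference left out in turn. At 30 °C the PHYE difference was lost without any of the 8 (1.12 to 1.32). That of ARR4 Pp3c20_13600 was lost without 7 of them (−1.86 to −1.26), of HSF4 Pp3c21_18820 (−2.10 to −1.05) and the HSP70 gene Pp3c26_10600 (−2.05 to −1.34) without 6 each, of PRR7 Pp3c16_18460 without 5 (0.91 to 1.34), and of CCR2 Pp3c11_19620 (0.90 to 1.23) and PRR9 Pp3c25_4920 (0.83 to 1.17) without 4 each. The calcineurin-like gene Pp3c20_18430 lost its call without replicate 1 of 24 °C 12 h (2.04) or of 24 °C 24 h (1.47), and SPA1 (−0.97) and Pp3c11_6300 (−6.50) without replicate 1 of 30 °C 12 h. At 37 °C the difference was lost without 7 of 8 libraries for Pp3c1_25080 (−3.43 to −2.31) and Pp3c26_10600 (−1.88 to −0.81). ARR4 Pp3c20_13600 lost it without replicate 1 of 24 °C 24 h (−1.43), and likewise without replicate 2 of 37 °C 12 h (−1.40). It was lost for ELF3 (2.18) and Pp3c23_14000 (−1.88) without replicate 2 of 24 °C 24 h, and for DET1 without replicate 1 of 37 °C 12 h (0.98). Further 30 °C calls were lost for Pp3c19_10440 without any of the 8 libraries and for ferritin without 7. For Pp3c18_11000 this held without 6, and for Pp3c21_19850 and Pp3c18_15010 without 3 each. At 37 °C the calls of Pp3c21_19850 (−1.74 to −1.09) and Pp3c19_10440 (−1.46 to −0.79) were lost without 6 libraries each, and that of Pp3c1_7030 without 4. The other differences given above kept their call with each library left out.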

How the results depend on the processing

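Of 2623 alternative values, 2238 counted as the same as in the main analysis. For single genes this meant the same direction and call, and for numbers of genes a number within a set ratio of the main one. Medians over all genes were counted as the same in every setting, so the total is no measure of stability. The 51 named calls from 12 h to 24 h at 24 °C were all kept under RLE scaling, DESeq2, a CPM limit of 1, the block and the fit of 4 libraries. Without filter, with library totals and with 8 libraries 50 were kept, 49 after thinning, 48 with eBayes and 43 to 45 with 1 library left out, and none reversed. The treat tests kept 26 (limma) and 32 (glmTreat). The causes were not tested. The 24 h libraries were the shallower, which limits what can be said of genes of few counts. Whether depth bears on the lost calls was not tested.

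The labels do not say that a replicate number marks a shared culture or day. Deviations of same-numbered libraries correlated at −0.0238 between 24 h and 12 h at 24 °C, and between −0.171 and 0.251 over all pairs of groups, so the numbers were not taken as pairs. With the replicate number as a block, 1194 genes were higher and 1068 lower at 24 h than at 12 h, and at 30 °C 36 were higher. Numbers of genes called are given as higher and then lower. With limma-voom treat they were 306 and 115 for 24 h against 12 h at 24 °C, 0 and 1 at 30 °C, 230 and 141 at 37 °C, 29 and 68 for the difference between 30 °C and 24 °C, 83 and 107 for that between 37 °C and 24 °C, 0 and 0 for 24 h against 1 h and 157 and 174 for 6 h against 1 h. With edgeR glmTreat they were, in the same order, 427 and 227, 0 and 1, 385 and 296, 63 and 145, 216 and 239, 21 and 9, and 390 and 279. Each treat test called 5 clock homologs higher and 3 lower. Where a count was 0, the quasi-likelihood test of edgeR had 2523 (30 °C) and 5110 (24 h against 1 h) genes at an unadjusted p under 0.05. Without a fold change limit 2222 and 2088 genes passed at 24 °C, 2579 and 2668 at 37 °C, 1017 and 826 for 24 h against 1 h and 3107 and 2817 for 6 h against 1 h. At 30 °C there were 49 and 49 without filter, 78 and 61 with DESeq2 and 87 and 57 with eBayes. With only the 8 libraries at 24 °C, 334 genes were lower at 24 h than at 1 h.

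With 1 library left out, 24 h against 12 h at 24 °C gave 925 to 989 genes higher and 720 to 827 lower. For 24 h against 1 h it was 181 to 406 and 58 to 186, lowest without replicate 1 of 24 h. At 30 °C it was 1 to 107 and 4 to 122, the extremes without replicate 1 and replicate 2 of 12 h. At 37 °C it was 1073 to 1426 and 873 to 1290. The difference between 30 °C and 24 °C gave 250 to 530 and 435 to 887, lowest without replicate 2 of 24 °C 24 h (250) and replicate 1 of 30 °C 12 h (435, with 288 higher), and also low without replicate 2 of 24 °C 12 h (271 and 492) and replicate 1 of 24 °C 24 h (291 higher). That between 37 °C and 24 °C gave 836 to 1414 and 809 to 1432, and 6 h against 1 h 1273 to 1671 and 896 to 1133.

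Signs of genes not called were checked only for changes of at least 0.6 in size and for genes picked from lists other than the clock list. Clock homologs of smaller change were not checked. Of the genes checked, those that changed sign with 1 library left out were Pp3c13_3880 (−0.17 to 0.08, above 0 without replicate 1 of 12 h), Pp3c13_21340 (−1.59 to 0.60, above 0 without replicate 2 of 12 h), Pp3c21_10640 (−0.16 to 0.63) and Pp3c22_9250 (−0.01 to 0.71), both below 0 without replicate 1 of 24 h. Pp3c11_6370 changed sign after thinning (0.24).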
